A study of Mus musculus with 17 samples.

Results

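The genes described here sense nucleic acids inside the cell or carry that signal onward: Ifih1 (MDA5), Ddx58 (RIG-I), Dhx58 (LGP2), Tlr3, Zbp1, Tmem173 (STING), Mavs, Tbk1, Irf3 and Trex1. They were chosen by name, and all 10 were found among the 53313 gene identifiers that the 17 count files have in common. The files come from 5 groups of wild-type mice or cells made from them. The strain is C57BL/6Rj in the sample labels and C57BL/6JRj in the study's methods. Primary tubular epithelial cells (PTEC) were harvested untreated at day 6 as non-senescent cells (ns PTEC, 4 cultures), and as senescent cells (sen PTEC, 4 cultures) at day 16 after γ-irradiation with 10 Gy. Whole kidney tissue from the right organ was taken from male mice aged 3, 12 and 24 months (3 libraries each). Irradiation and 10 more days in culture went together, so the effects of the 2 cannot be told apart.

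MDA5 and RIG-I are helicases that bind double-stranded RNA in the cytosol, and LGP2 is a related helicase without the signalling domain that tunes them. MDA5 and RIG-I signal through MAVS on the outer mitochondrial membrane, whereas TLR3 reads double-stranded RNA in endosomes through the adaptor TRIF. Cytosolic DNA is read by the enzyme cGAS, whose cyclic dinucleotide product switches on STING. These routes converge on the kinase TBK1 and the transcription factor IRF3, which starts type I interferon transcription. ZBP1 binds Z-form nucleic acid and can drive necroptosis through RIPK3 and MLKL, and TREX1 is an exonuclease that clears DNA from the cytosol. Transcription of Ifih1, Ddx58, Dhx58 and Zbp1 is itself induced by interferon, so these genes belong both to the sensors and to the interferon response.

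Promoter windows are shown for the genes whose levels the results turn on and for which the RefSeq (GRCm38.p6) copy used here held an entry. Tlr3 stands beside them as an RNA sensor that was not called in any comparison. Each window runs 5′ to 3′ on the gene's own strand from 250 bases before the annotated start to 50 bases after it, and capitals mark a match to the interferon-stimulated response element core. The Ifih1 window is chr2:62646206-62646505, the Ddx58 window chr4:40239776-40240075 and the Tlr3 window chr8:45410331-45410630, all on the minus strand.
Ifih1: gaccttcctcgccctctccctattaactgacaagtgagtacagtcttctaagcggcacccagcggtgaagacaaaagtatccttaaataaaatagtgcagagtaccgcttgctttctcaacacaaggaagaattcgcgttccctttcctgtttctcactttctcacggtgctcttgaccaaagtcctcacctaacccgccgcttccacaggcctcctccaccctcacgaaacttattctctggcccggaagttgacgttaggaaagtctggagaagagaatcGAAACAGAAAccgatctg
Ddx58: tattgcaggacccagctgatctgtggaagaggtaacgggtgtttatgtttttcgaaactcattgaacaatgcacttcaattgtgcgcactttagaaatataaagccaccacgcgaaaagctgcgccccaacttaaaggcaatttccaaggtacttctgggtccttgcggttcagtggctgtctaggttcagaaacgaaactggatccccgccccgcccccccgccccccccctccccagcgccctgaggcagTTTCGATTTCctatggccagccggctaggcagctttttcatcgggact
Tlr3: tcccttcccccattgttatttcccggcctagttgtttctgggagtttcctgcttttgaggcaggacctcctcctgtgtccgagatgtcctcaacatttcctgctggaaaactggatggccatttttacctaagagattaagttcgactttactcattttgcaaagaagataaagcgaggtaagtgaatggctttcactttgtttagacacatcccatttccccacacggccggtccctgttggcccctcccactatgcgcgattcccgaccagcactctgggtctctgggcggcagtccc
The core was searched as a pair of GAAA half-sites 2 bases apart (GAAANNGAAA) on both strands and was present in 1131 of 32851 promoter windows of this length (3.44%). Ifih1 held GAAACAGAAA from position 33 after the start, and Ddx58 held TTTCGATTTC, a match on the opposite strand, from position 3. The windows of Tlr3, Mavs, Irf3, Tbk1 and Trex1 held no match to these letters. The γ-activated site TTCNNNGAA, present in 8.30% of all windows, was found in none of the 8 windows of the 7 genes with an entry. Tmem173, Dhx58 and Zbp1 had no entry in the copy used, so their promoters were not searched.

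Sequencing depth was 26963442 to 35409144 counts per PTEC library and 37311247 to 66894790 counts per kidney library, and in the kidneys it increased with age. Counts were made on one gene set for PTEC, another for 3-month kidneys and yet another for both older ages, so age and gene set cannot be told apart in a comparison with 3 months, whereas 24 and 12 months share a set. Tmem173 is the only one of the 10 genes whose identifier version differs between the sets. The PTEC held proximal tubule transcripts such as Lrp2 (65.5 to 539 CPM, the count scaled to library size, in ns and 117 to 318 in sen PTEC), while Slc34a1, the proximal phosphate transporter, reached at most 0.067 CPM in sen PTEC. Of 10 proximal tubule markers, 6 were tested between sen and ns PTEC, 3 of them were called lower and none higher, and the list's summed level was 229 to 832 CPM in ns and 171 to 355 CPM in sen PTEC. Over all tested genes, 19.7% were called lower and 20.1% higher. The labels do not say whether the cultures came from separate animals, so p-values between PTEC measure the spread between these cultures, which may be technical.

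When levels were set per exon length as RPKM (CPM divided by exon length in kilobases), the shared adaptor and the transcription factor stood above the sensors. In ns PTEC, Mavs (23.5 ± 6.15 RPKM, SD, n = 4) and Irf3 (16.0 ± 4.61) were highest and overlapped, as did Irf3 and Tbk1 (13.7 ± 1.26). Ddx58 (6.60 ± 1.55 RPKM), Tlr3 (5.78 ± 1.46) and Tmem173 (5.38 ± 1.21) followed with overlapping ranges. Ifih1 (2.54 ± 0.653 RPKM), Dhx58 (0.550 ± 0.225) and Zbp1 (0.0244 ± 0.00875) lay below them in that order, without overlap between neighbours.

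In sen PTEC this order was different in its middle part. Ddx58 stood at 13.9 ± 3.09 RPKM (SD, n = 4), and its libraries overlapped those of Irf3 above it and of Tbk1 (11.3 ± 0.899) below it. Tmem173, at 2.85 ± 0.612 RPKM, ranked below Ifih1 (5.87 ± 1.44) and overlapped Dhx58 (2.37 ± 1.09). Mavs (21.9 ± 1.90 RPKM) remained the highest by its mean and Zbp1 (0.306 ± 0.250) the lowest of the 9 genes with counts.

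In the kidneys, Mavs and Irf3 were again the highest, from 12.4 to 18.4 RPKM in their group means, and Tbk1 was next at 5.94 to 6.82 RPKM. Ddx58, Tlr3 and Ifih1 lay between 1.29 and 2.44 RPKM and Tmem173 between 1.03 and 1.64. Dhx58 (0.321 to 0.505 RPKM) and Zbp1 (0.296 to 0.647) overlapped at all 3 ages.

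**Figure D1:**
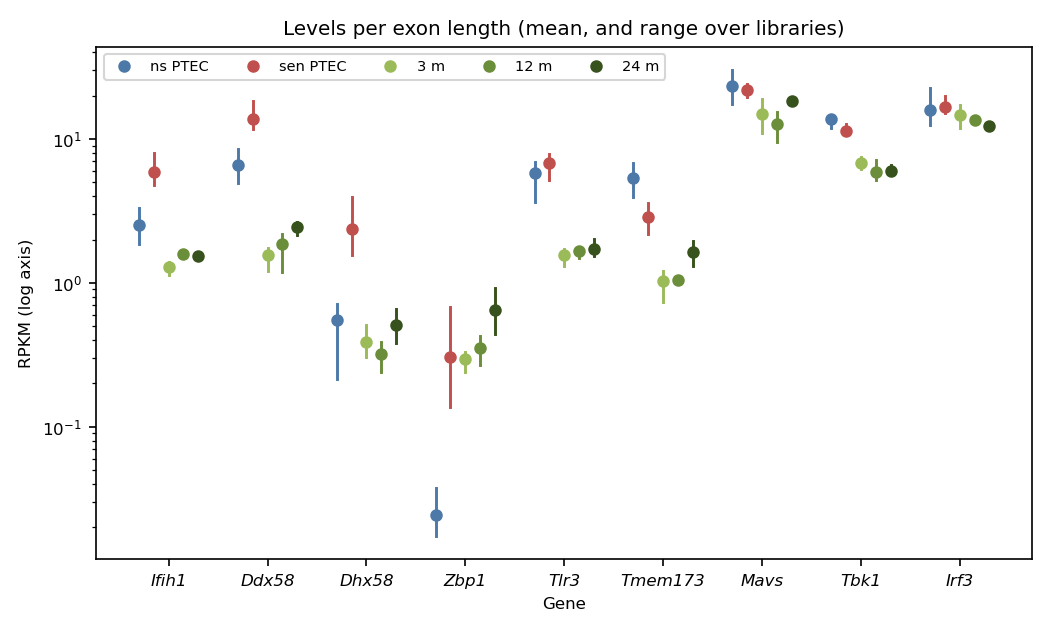
Mean level of each of the 9 genes with counts (RPKM, log axis), with bars for the range over the libraries of a group (4 PTEC libraries or 3 kidneys). Mavs and Irf3 are the highest in all 5 groups, and Zbp1 in ns PTEC is the lowest point of the plot at 0.0244 RPKM.

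Trex1 had 0 counts in all 17 libraries. For assigned reads, and for counting error only, a floor of 3 counts allows up to 0.118 CPM in PTEC and up to 0.0788 CPM in the kidneys. Its 1147 exonic bases (chr9:109057933-109059734, minus strand) lie wholly inside exons of Atrip on the same strand. How reads shared by Trex1 and Atrip were counted is not given in the sources used here, and the cause of the 0 counts was not tested. Atrip, which encodes the partner of the checkpoint kinase ATR, was counted at 0.0615 to 0.368 CPM in PTEC and at 7.24 to 13.2 CPM in the kidneys. With the counting rule unknown, the counts were not read as a level of Trex1. It entered no test, which left 9 tested genes in every comparison.

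The comparison of sen with ns PTEC asks which of these genes change in irradiated tubular cells. The RNA helicase genes Ifih1, Ddx58 and Dhx58 and the Z-nucleic acid sensor Zbp1 were up-regulated, and Tmem173 was down-regulated. Tlr3 and the shared signalling genes Mavs, Tbk1 and Irf3 were not called. A gene was called when edgeR's quasi-likelihood test gave a Benjamini-Hochberg adjusted p below 0.05 and the log2 fold change exceeded 0.5 in size. Of the 10 genes, 9 were tested, 4 were called higher and 1 lower. Over all 15434 tested genes, 20.1% were called higher and 19.7% lower (39.8% in either direction). The 4 called higher include Zbp1, which passed the filter on low counts only through its level in sen PTEC. Without it, 3 of the other 9 genes, which include the untested Trex1, were called higher.

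Ifih1 (ENSMUSG00000026896, chr2:62595798-62646255) was measured at 17.6, 27.1, 15.3 and 23.0 CPM in ns PTEC and at 65.1, 38.8, 42.5 and 45.1 CPM in sen PTEC. Every sen culture was above every ns culture. The difference was 2.31-fold (log2 1.21, SE 0.225, edgeR adjusted p = 0.00218).

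Ddx58 (ENSMUSG00000040296, chr4:40203773-40239828) was measured at 41.4, 49.9, 34.7 and 60.1 CPM in ns PTEC and at 129, 83.6, 82.6 and 95.8 CPM in sen PTEC. The lowest sen culture again exceeded the highest ns culture. The fold change was 2.10 (log2 1.07, SE 0.206, edgeR adjusted p = 0.00256). Ifih1 and Ddx58 are the genes with a response element core in the windows printed above. The promoters of Dhx58, Zbp1 and Tmem173 were not searched, and a link between the core and the changes was not tested.

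Dhx58 (ENSMUSG00000017830, chr11:100694884-100704271) was a low transcript in ns PTEC, at 0.707, 2.03, 2.31 and 2.14 CPM, and reached 12.9, 5.09, 7.4 and 5.60 CPM in sen PTEC. The groups did not overlap, and sen replicate 1 was well above the other 3 sen cultures. The fold change was 4.32 (log2 2.11, SE 0.420, edgeR adjusted p = 0.00309). An antisense gene, Dhx58os, shares 141 of its exonic bases (4.31%), and whether strand was used in counting is not given in the sources used here.

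Zbp1 (ENSMUSG00000027514, chr2:173206612-173218923) was close to absent in ns PTEC, with 2, 4, 2 and 2 counts (0.0615, 0.131, 0.0784 and 0.0738 CPM). In sen PTEC it had 74, 17, 33 and 14 counts (2.38, 0.569, 0.892 and 0.484 CPM). All sen cultures were higher than all ns cultures, and sen replicate 1 supplied 74 of the 138 counts. The fitted fold change was 12.0 (log2 3.58, SE 0.639, edgeR adjusted p = 0.00174), and the ratio of summed counts was 12.6 (95% Clopper-Pearson interval 6.63 to 26.8, counting error only). Without sen replicate 1 the fitted fold change was 7.27 (adjusted p = 0.00150). Its presence among the tested genes was not independent of its difference. In a fit without the filter the log2 fold change was 3.58 (edgeR adjusted p = 0.000223).

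Sen replicate 1 held the highest value of Ifih1, Ddx58, Dhx58 and Zbp1. Leaving it out gave the lowest log2 fold changes of the 8 leave-one-out fits, 1.03 for Ifih1, 0.91 for Ddx58, 1.75 for Dhx58 and 2.86 for Zbp1, and each gene was still called. In none of these groups was its distance to the next culture large enough for Dixon's test at the 95% level.

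Tmem173 (ENSMUSG00000024349, chr18:35733679-35740554) encodes STING, the receptor for the product of cGAS. It went the other way, from 10.8, 15.7, 13.8 and 18.6 CPM in ns PTEC to 5.98, 7.0, 9.81 and 8.50 CPM in sen PTEC. Each sen culture was below each ns culture, although the highest sen culture and the lowest ns culture were close. The log2 fold change was -0.91 (fold 0.531, SE 0.221, edgeR adjusted p = 0.00854). Groups that did not overlap, as for these 5 genes, were seen for 22.1% of all tested genes on the higher side and for 19.9% on the lower side.

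**Figure D2:**
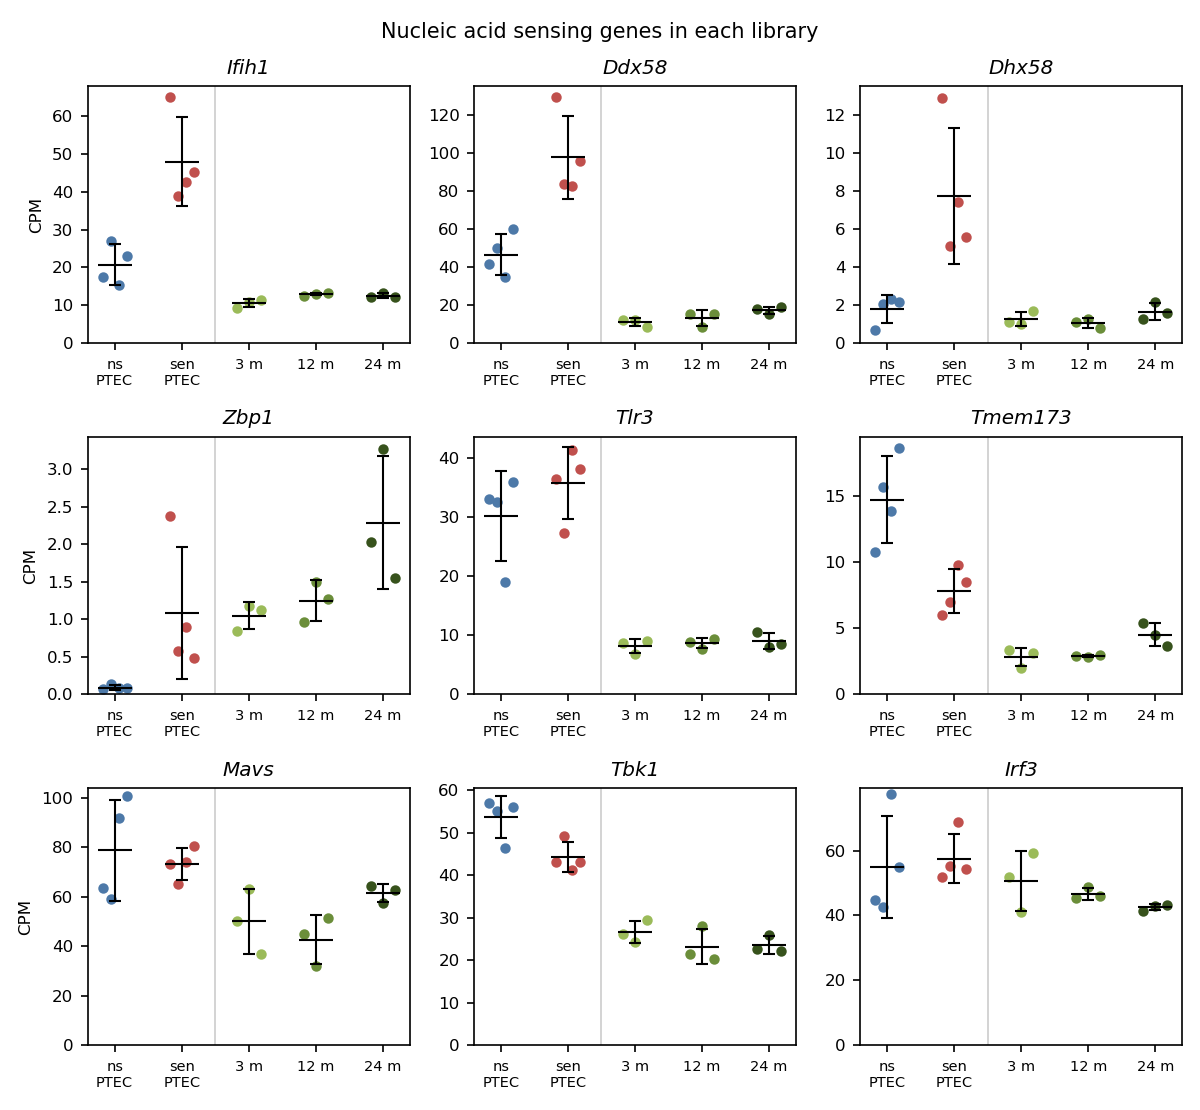
Level of 9 genes in every library (CPM, one panel per gene, linear axes from 0); points are libraries, the horizontal line is the group mean and the bar is the SD (4 PTEC cultures or 3 kidneys). Ifih1, Ddx58, Dhx58 and Zbp1 are higher and Tmem173 is lower in all sen than in all ns cultures, and the groups overlap for Tlr3, Mavs, Tbk1 and Irf3.

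Tlr3, the endosomal RNA sensor, was measured at 33.0, 32.5, 18.9 and 35.9 CPM in ns PTEC and at 36.3, 27.2, 41.3 and 38.1 CPM in sen PTEC. The groups overlapped (log2 fold change 0.25, 95% interval -0.23 to 0.72, edgeR adjusted p = 0.377). An antisense gene, Gm45542, shares 381 of its exonic bases (7.32%).

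Mavs was measured at 63.5, 59, 91.9 and 100.5 CPM in ns PTEC and at 73.1, 65.1, 73.8 and 80.6 CPM in sen PTEC. The sen cultures lay inside the range of the ns cultures, with a log2 fold change of -0.11 (95% interval -0.52 to 0.31, edgeR adjusted p = 0.671). Irf3 behaved alike in that all 4 sen cultures (51.8, 55.2, 68.8 and 54.3 CPM) lay within the ns range (44.9, 42.8, 77.5 and 54.9 CPM). Its log2 fold change was 0.07 (95% interval -0.38 to 0.51, edgeR adjusted p = 0.812). Irf3 shares 88 exonic bases (2.56%) with Bcl2l12 on the opposite strand.

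Tbk1, the kinase that phosphorylates IRF3, was measured at 57.0, 55.2, 46.4 and 56.1 CPM in ns PTEC and at 43.1, 49.4, 41.4 and 43.1 CPM in sen PTEC. Only the highest sen culture overlapped the lowest ns culture. The log2 fold change of -0.28 (95% interval -0.55 to -0.01) had an edgeR adjusted p of 0.0902 and was not called. For these 4 genes the intervals together span -0.55 to 0.72 on the log2 scale.

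Markers of other cells were measured beside these results. Over all tested genes, 20.1% were called higher and 19.7% lower between sen and ns PTEC. The summed level of 8 fibroblast and pericyte markers was 81.5 to 170 CPM in ns PTEC and 597 to 1286 CPM in sen PTEC, and 6 of the 8 were called higher. Of 10 tested macrophage markers, 1 was called lower and none higher (summed level of the list 91.5 to 146 CPM in ns and 63.8 to 253 CPM in sen PTEC). Of 6 tested general leukocyte markers, 3 were called lower and none higher (15.5 to 32.4 CPM in ns and 8.48 to 29.5 CPM in sen PTEC). Of 6 dendritic cell markers only Zbtb46 was tested, and it was called higher (log2 1.0, adjusted p = 0.00395). The list summed to 3.02 to 5.32 CPM in ns and 7.46 to 9.43 CPM in sen PTEC, without overlap, while its members Xcr1 and Siglech had 0 counts in all 8 cultures. Of 7 endothelial markers, 1 was called lower and none higher (80.5 to 246 CPM in ns and 60.2 to 234 CPM in sen PTEC). The list of 13 T, NK and B cell markers summed to 0.406 to 0.952 CPM in ns and 0.483 to 0.933 CPM in sen PTEC, with Cd3d, Cd3g and Gzma among those at 0 counts in all 8 cultures. The part of other cell types in the sensor levels was not tested. In bulk RNA, fewer cells of a type and less RNA per cell cannot be told apart.

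The other genes of the pathways were taken from 8 lists, which held no gene of the 10. These lists were chosen with earlier results of these data known, so the shares called in them are descriptions. Of the 104 list genes tested in PTEC, 42 were called (40.4%), near the 39.8% of all tested genes. Of 20 RNA sensors and MAVS regulators, 8 were called higher, 1 lower and 11 not at all, beside the 20.1% higher and 19.7% lower over all tested genes, with a median log2 fold change of 0.19 against -0.00 over all tested genes. Those with the largest changes were Oas3 (log2 3.98, adjusted p = 0.000570) and Oasl2 (2.97, adjusted p = 0.000899), of the oligoadenylate synthetase family, and the helicase gene Ddx60 (3.09, adjusted p = 0.00244). Oas3 increased from 0.184 to 1.38 CPM in ns PTEC to 6.40 to 19.7 CPM in sen PTEC, with no overlap.

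Of 15 DNA sensors and STING regulators, 3 were called higher and 4 lower, shares near the 20.1% and 19.7% of all tested genes, with a median of -0.16. Slc19a1, a folate carrier that also imports cyclic dinucleotides, fell by 1.29 on the log2 scale (adjusted p = 0.00448) from 23.9 to 59.3 CPM to 14.8 to 17.8 CPM. Ifi204, an interferon-inducible DNA-binding protein gene, was called higher (log2 1.19, adjusted p = 0.0209) with overlapping groups, but not without sen replicate 1 (adjusted p = 0.0664). Mb21d1, the gene of cGAS, named after its values were seen, was measured at 1.76 to 4.04 CPM in ns and 1.19 to 2.04 CPM in sen PTEC (log2 fold change -0.78, adjusted p = 0.0654). It passed when the replicate number was a block in the edgeR fit (log2 -0.75, adjusted p = 0.0345).

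Of 10 endosomal Toll-like receptor genes and adaptors, 9 were tested and 1 was called, lower: Myd88, at log2 -0.53 (adjusted p = 0.0198), which was not called without ns replicate 3 (log2 -0.39) or sen replicate 4 (adjusted p = 0.0667). Of 18 kinases, adaptors and interferon regulatory factors, 3 were called higher and 1 lower, shares below the 20.1% and 19.7% of all tested genes, with a median of -0.04. Irf7, the interferon-inducible relative of Irf3, was called higher at log2 2.44 (adjusted p = 0.00155), from 3.84 to 12.0 CPM to 24.9 to 83.8 CPM. Ikbkg, which encodes the scaffold NEMO, was called higher at log2 0.89 (adjusted p = 0.00270). Traf2 was called lower at log2 -0.59 (adjusted p = 0.0178), but not without ns replicate 3 (log2 -0.44) or sen replicate 1 (adjusted p = 0.0629).

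Of the 4 necroptosis partners of ZBP1, 1 was called higher and 1 lower, beside 20.1% and 19.7% of all tested genes. Mlkl, the executor of necroptosis, was called lower (log2 -0.86, adjusted p = 0.00424), from 22.1 to 36.3 CPM in ns to 13.4 to 19.4 CPM in sen PTEC. Cflar, an inhibitor of caspase-8, was called higher (log2 0.68, adjusted p = 0.0251) with overlapping groups, but not without sen replicate 1, 2 or 4 (adjusted p = 0.0611, 0.0697 and 0.0662). Ripk3, named after its values were seen and not called, was measured at 9.63 to 14.9 CPM in ns and 15.0 to 17.6 CPM in sen PTEC (log2 0.37, adjusted p = 0.0962).

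Of 14 nucleases and suppressors, the group to which Trex1 belongs by function, 13 were tested, 3 were called higher and 3 lower, again near the shares of all tested genes. Adar, whose product edits double-stranded RNA, was higher (log2 1.08, adjusted p = 0.000435, 42.4 to 56.8 CPM against 84.4 to 117 CPM). Banf1, a chromatin-binding protein that competes with cGAS for DNA, was lower (log2 -1.35, adjusted p = 0.00184), and so was Rnaseh2b, a subunit of ribonuclease H2 (log2 -1.0, adjusted p = 0.00205).

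Downstream of the sensors, Ifnb1 and Ifna4 had 0 counts in all 17 libraries, and Ifnl2 and Ifnl3 had at most 1 count in any library. The floors given for Trex1 apply to Ifnb1 and Ifna4 as well. Of the 15 interferon, receptor and signalling genes 11 were tested, of which 3 were called higher, none lower and 8 not at all. Over all tested genes 20.1% were called higher and 19.7% lower, and the list's median log2 fold change was 0.28. Those called higher included Irf9 (log2 1.30, adjusted p = 0.000341) and Stat2 (1.25, adjusted p = 0.00275). They encode partners in the complex that binds the response element. Of 15 interferon targets, 14 were tested, 10 were called higher and none lower, beside 20.1% and 19.7% of all tested genes, with a median log2 fold change of 1.39. The largest were Ifi44 (log2 4.65, adjusted p = 0.000202), Ifit1 (4.56, adjusted p = 0.000171) and Isg15 (4.16, adjusted p = 8.7e-05).

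**Figure D3:**
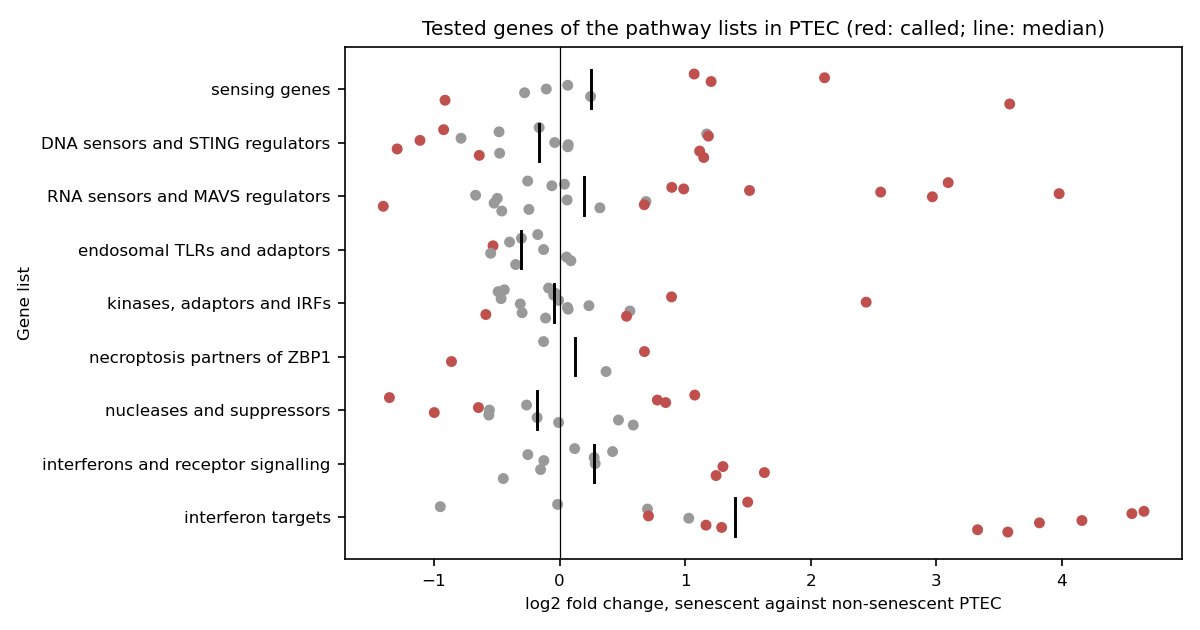
Log2 fold change of each tested gene in sen against ns PTEC, for the sensing genes and the 8 pathway lists; each point is a gene, red points were called and the black line is the list's median. The interferon targets have the highest median at 1.39, and the endosomal Toll-like receptor genes and adaptors the lowest at -0.30.

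The kidneys of the 3 ages were compared to ask whether the same genes move with age in the intact organ. No gene of the 10 was called in any of the 3 age comparisons by edgeR. Between 24 and 3 months 2.34% of the 17067 tested genes were called, between 12 and 3 months 2.58% and between 24 and 12 months 1.33%. At an unadjusted p under 0.05, 3 of the 9 genes tested passed between 24 and 3 months, where 18.2% of all tested genes did. Between 12 and 3 months 1 passed (16.5% of all) and between 24 and 12 months 3 passed (15.2% of all). DESeq2 with the settings of the study called 1 of the 10, Zbp1, between 24 and 3 months, where it called 3.45% of 30029 genes. It called none of the 10 between 12 and 3 months (3.69% of all genes) or between 24 and 12 months (2.59%).

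Zbp1 was measured at 0.840, 1.17 and 1.12 CPM at 3 months, 0.954, 1.5 and 1.27 CPM at 12 months and 2.03, 3.27 and 1.55 CPM at 24 months. The 24-month kidneys were above the kidneys of both younger ages, which overlapped. Between 24 and 3 months the log2 fold change was 1.12 (SE 0.319), with an adjusted p of 0.118 by edgeR and of 0.0455 by DESeq2 with the settings of the study. Between 24 and 12 months, which share a gene set, it was 0.88 (SE 0.314, edgeR adjusted p = 0.228).

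Tmem173 was measured at 3.31, 2.01 and 3.13 CPM at 3 months, 2.85, 2.80 and 2.99 CPM at 12 months and 5.38, 4.50 and 3.61 CPM at 24 months. It too was highest in the 3 oldest kidneys. The log2 fold change was 0.68 (SE 0.232, edgeR adjusted p = 0.179) between 24 and 3 months, where its identifier version also differs. It was 0.64 (SE 0.231, edgeR adjusted p = 0.229) between 24 and 12 months.

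Ddx58 was measured at 12.0, 12.3 and 8.53 CPM at 3 months, 15.4, 8.41 and 15.5 CPM at 12 months and 17.8, 15.1 and 18.8 CPM at 24 months. The 24-month kidneys were above the 3-month kidneys but overlapped those of 12 months, of which 1 was as low as the lowest young kidney. The log2 fold change between 24 and 3 months was 0.66 (SE 0.251, edgeR adjusted p = 0.221). In each of the 3 same-numbered pairs the 24-month kidney was above the 12-month kidney (log2 0.40, SE 0.250, edgeR adjusted p = 0.478, and 0.329 with a block for these pairs).

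Ifih1 was measured at 9.27, 10.9 and 11.4 CPM at 3 months, 12.5, 13.0 and 13.1 CPM at 12 months and 12.0, 13.3 and 12.1 CPM at 24 months. Both older groups were above the 3-month kidneys and overlapped each other; between 12 and 3 months such a separation was seen for 10.9% of all tested genes. The log2 fold change was 0.29 between 12 and 3 months (SE 0.130, edgeR adjusted p = 0.298) and 0.25 between 24 and 3 months (SE 0.130, edgeR adjusted p = 0.331). Zbp1, Tmem173, Ddx58 and Ifih1 were thus the genes whose 24-month values all lay above their 3-month values, as did those of 11.9% of all tested genes.

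Dhx58 was low at all ages, at 1.13, 1.0 and 1.66 CPM at 3 months, 1.09, 1.27 and 0.791 CPM at 12 months and 1.25, 2.14 and 1.57 CPM at 24 months. The 3 ages overlapped, and the log2 fold change between 24 and 3 months was 0.39 (95% interval -0.30 to 1.07, edgeR adjusted p = 0.474). Between 24 and 12 months it was larger (log2 0.65, 95% interval -0.03 to 1.34, edgeR adjusted p = 0.351, and 0.318 with a block for the pairs), and the 24-month kidney was higher in all 3 same-numbered pairs. With Tmem173, Zbp1, Mavs and Ddx58, 5 of the 9 genes tested were higher at 24 months in every pair, as were 29.7% of all tested genes.

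Tlr3 was measured at 8.66, 6.84 and 8.89 CPM, 8.88, 7.70 and 9.30 CPM and 10.5, 7.95 and 8.51 CPM at 3, 12 and 24 months. The ages overlapped, with a log2 fold change between 24 and 3 months of 0.14 (95% interval -0.24 to 0.53, edgeR adjusted p = 0.62).

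Mavs was measured at 50.1, 63.2 and 36.9 CPM at 3 months, 45.0, 31.8 and 51.2 CPM at 12 months and 64.5, 57.6 and 62.7 CPM at 24 months. Its 24-month values were close together and above all 12-month values (log2 fold change 0.53, SE 0.230, edgeR adjusted p = 0.320). They overlapped the wide range of the 3-month kidneys (log2 0.30, SE 0.230, edgeR adjusted p = 0.467). Zbp1, Tmem173 and Mavs were the genes with all 24-month values above all 12-month values, as seen for 13.5% of all tested genes.

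Irf3 was measured at 51.7, 41.0 and 59.3 CPM at 3 months, 45.3, 48.7 and 45.9 CPM at 12 months and 41.5, 43.1 and 43.2 CPM at 24 months. All 24-month values were below all 12-month values, a pattern of 12.2% of all tested genes, but the size was small (log2 -0.13, SE 0.151, edgeR adjusted p = 0.690). Tbk1 was measured at 26.2, 24.3 and 29.4 CPM, 21.4, 28.0 and 20.2 CPM and 22.5, 25.9 and 22.1 CPM at 3, 12 and 24 months. All ages overlapped, with a log2 fold change of -0.18 (95% interval -0.55 to 0.18, edgeR adjusted p = 0.518) between 24 and 3 months.

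**Figure D4:**
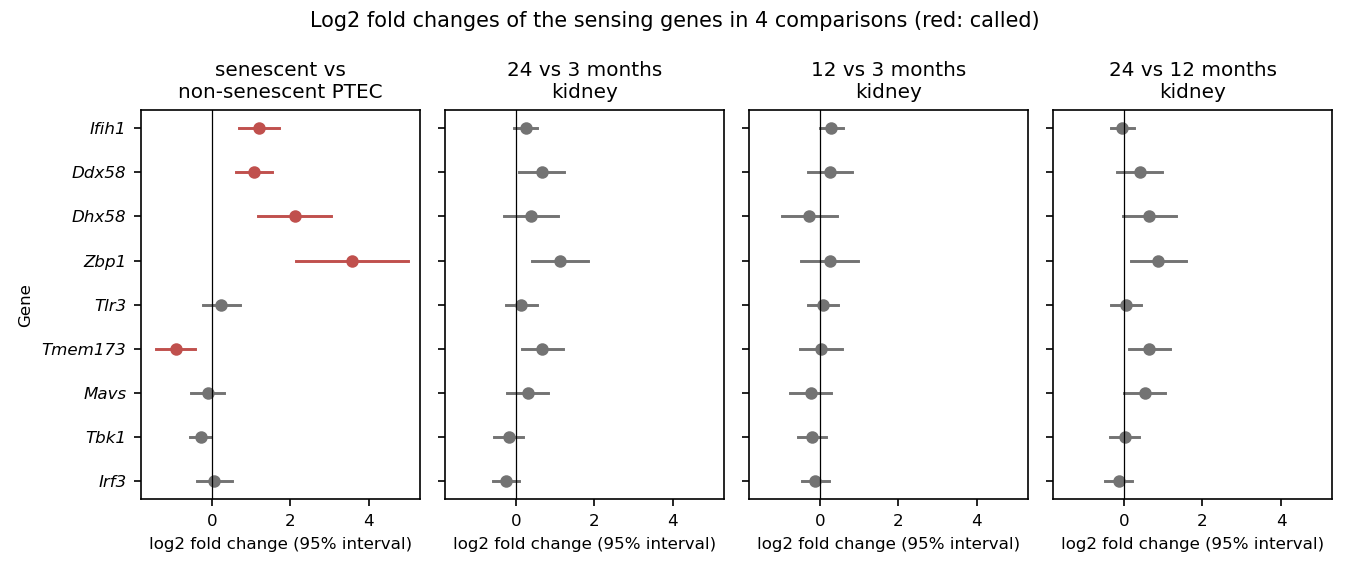
Log2 fold change of 9 genes in the 4 comparisons, with 95% intervals from the edgeR fit; red points were called. In PTEC, Ifih1, Ddx58, Dhx58 and Zbp1 are called above 0 and Tmem173 below it, and no gene is called between ages.

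Marker levels of several cell types differed between ages in the same kidneys. The summed level of 12 macrophage markers was 120 to 195 CPM at 3 months, 178 to 209 CPM at 12 months and 202 to 265 CPM at 24 months. Between 24 and 3 months, 9 of the 12 had an unadjusted p under 0.05 by edgeR, as did 18.2% of all tested genes, and 1 was called, higher. The sum of 7 general leukocyte markers was 34.1 to 44.9, 58.9 to 70.0 and 65.2 to 94.9 CPM at 3, 12 and 24 months. That of 13 T, NK and B cell markers was 6.43 to 10.2, 16.8 to 100.2 and 26.0 to 110.9 CPM. Between 24 and 3 months, 5 of these 13, 1 of the 7 leukocyte markers and 1 of 6 dendritic cell markers were called higher. None of these was called lower, and 2.34% of all tested genes were called. The sum of 8 fibroblast and pericyte markers was 158 to 170 CPM at 3, 170 to 175 CPM at 12 and 217 to 271 CPM at 24 months, so the oldest kidneys lay above both younger groups, and none of the 8 was called in either comparison with 24 months. The sum of 10 proximal tubule markers was 45251 to 46502, 47668 to 50196 and 37417 to 41992 CPM, lowest in the oldest kidneys, although 2 of the 10 were called higher and none lower between 24 and 3 months. Endothelial markers summed to 172 to 227, 271 to 279 and 165 to 276 CPM and dendritic cell markers to 5.39 to 8.19, 8.69 to 12.8 and 7.20 to 9.83 CPM, and for both lists the 24-month kidneys overlapped those of 3 and 12 months. The part of these cell types in the levels of Zbp1, Tmem173, Ddx58 and Ifih1 was not tested.

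Of the 107 genes tested from the pathway lists, 1 was called between 24 and 3 months (0.935%, beside 2.34% of all tested genes), 1 between 12 and 3 months (0.935%, beside 2.58%) and 2 between 24 and 12 months (1.87%, beside 1.33%). These shares were near or below those of all tested genes, and the calls came from 3 genes. Oas3, which was also called in PTEC, was measured at 0.247 to 0.471 CPM at 3 months, 0.230 to 0.347 CPM at 12 months and 1.17 to 1.43 CPM at 24 months. It was higher at 24 than at 3 months (log2 1.75, edgeR adjusted p = 0.0217) and than at 12 months (log2 2.14, edgeR adjusted p = 0.0196). With a block for the 24- and 12-month pairs the adjusted p was 0.0445 between 24 and 12 months, and it was 0.0960 with the number as a block at all 3 ages. All 6 leave-one-out fits of that comparison missed the threshold (adjusted p up to 0.105). Between 24 and 3 months, 5 of 6 leave-one-out fits missed it, all except the one without 3-month replicate 2 (adjusted p up to 0.101), whereas the fold changes stayed between 1.52 and 1.95 on the log2 scale.

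Irf5, an interferon regulatory factor of macrophages, was higher at 12 than at 3 months (log2 0.71, edgeR adjusted p = 0.0498; 12.2 to 13.3 and 19.9 to 22.6 CPM). Its 24-month level was 10.9 to 15.7 CPM. Chuk, a subunit of the IκB kinase, was lower at 24 than at 12 months (log2 -0.67, edgeR adjusted p = 0.0402; 162 to 168 and 96.0 to 113 CPM), with an adjusted p of 0.0768 under the block for the 24- and 12-month pairs. Neither gene passed the threshold in any of its 6 leave-one-out fits (adjusted p up to 0.182 for Irf5 and 0.166 for Chuk). Of the 15 interferon targets none was called between ages by edgeR. The median log2 fold change was 0.16 between 24 and 3 months, -0.27 between 12 and 3 months and 0.45 between 24 and 12 months. At an unadjusted p under 0.05, 4, 2 and 7 of the 15 passed in these comparisons, where 18.2%, 16.5% and 15.2% of all tested genes did.

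Whether the effect of senescence in PTEC differed from that of age in the kidney was tested as an interaction over all 17 libraries. The threshold was an adjusted p under 0.05. This fit gave each gene a shared spread for cultures and kidneys, which were otherwise fitted apart because their spreads differ. Of the 9 genes tested, 4 passed, where 23.8% of 17999 tested genes did (11.6% with the larger effect in PTEC and 12.2% with the smaller). The effect was larger in PTEC for Zbp1 (difference of log2 fold changes 2.45, SE 0.737, edgeR adjusted p = 0.0235), Dhx58 (1.71, SE 0.556, adjusted p = 0.0344) and Ifih1 (0.94, SE 0.285, adjusted p = 0.0247). For Tmem173 it was -1.61 (SE 0.337, adjusted p = 0.00244), with log2 fold changes of -0.91 in PTEC and 0.68 between 24 and 3 months in the separate fits. Its identifier version differs between 24 and 3 months, where age and gene set cannot be told apart. An interaction with 24 against 12 months, which share a gene set, was not tested. For Ddx58 the difference of 0.39 (95% interval -0.31 to 1.10, adjusted p = 0.426) did not pass.

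Tmem173 passed in all 14 leave-one-out fits of this interaction. Zbp1 did not pass without ns replicate 1 (adjusted p = 0.0529), 24-month replicate 1 (0.0559) or 24-month replicate 3 (0.0612), and without sen replicate 1 its difference was 1.72. Dhx58 did not pass without sen replicate 1 (adjusted p = 0.0800), 3-month replicate 1 (0.0542) or 3 (0.0999), or 24-month replicate 1 (0.0943) or 3 (0.0768), nor with the PTEC replicate number as a block (log2 1.65, adjusted p = 0.0608). Ifih1 did not pass without sen replicate 1 (adjusted p = 0.0537), 3-month replicate 2 (0.0555) or 3 (0.0730), or 24-month replicate 1 (0.0778) or 3 (0.0759), nor without the filter on low counts (0.0585).

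The genes most like the 3 with the largest changes in PTEC were sought within groups. After subtracting each group's mean log2 CPM, Pearson's r over the 17 libraries was highest for Ifih1 with Parp9 (0.95), Parp14 (0.87) and Trim30a (0.86). For Dhx58 it was highest with Isg15 (0.92), Irf7 (0.92) and Usp18 (0.89), and for Zbp1 the highest values included Cmpk2 (0.79) and Rsad2 (0.78). These are descriptions over points that share libraries and depth, taken as the top of about 12004 genes averaging 1 CPM or more in each experiment. Sen replicate 1 was the highest of its group for Ifih1, Dhx58 and Zbp1, and r without it was not computed. Zbp1 also had only 2 to 4 counts in each ns PTEC library. Among the genes themselves, r was 0.70 between Ifih1 and Zbp1, 0.63 between Dhx58 and Zbp1 and 0.52 between Ifih1 and Dhx58. Ddx58 stood at 0.49 with Ifih1 but at 0.02 with Dhx58, and Mavs and Tbk1 had the lowest value, -0.74.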

How the data were processed

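RNA of 8 PTEC cultures and 9 kidneys was analysed. The authors made stranded poly(A) libraries, processed paired reads with the nf-core RNA-seq pipeline on GRCm38 and deposited raw counts per gene, one file per library. Aligner, counter and strand setting are not given in the sources used here, so reads of overlapping or antisense genes may be shared.

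Counts were used as deposited and joined on Ensembl identifiers without version. Symbols, positions and exon lengths come from a GENCODE annotation of GRCm38, and promoter windows from RefSeq (GRCm38.p6). Analyses used R 4.3.3, edgeR 4.0.16, limma 3.58.1, DESeq2 1.42.0 and Python 3.11.15 (numpy 2.4.6, scipy 1.17.1, pandas 2.3.3, matplotlib 3.10.9). PTEC were fitted apart, the 3 ages in one fit, and the interaction in a fit of all 17 libraries. Each fit used TMM, filterByExpr and edgeR's quasi-likelihood test (robust), with Benjamini-Hochberg adjustment over all genes tested. All adjusted p-values are from edgeR unless DESeq2 is named, and the thresholds are those of the study. The scripts were tested on simulated data. CPM is TMM-scaled, and RPKM divides it by exon length.

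The 10 genes, the lists and the rules were chosen with earlier results of these data known. All 10 genes were named in every comparison. From each list the text names called genes among the 3 largest changes in PTEC and all genes called between ages, and for the 3 genes with the largest PTEC changes the 3 most correlated genes over libraries (log2 CPM with a prior count of 2). Mb21d1 and Ripk3 were named after their values were seen. Some genes these rules name are not reported here. Same-numbered PTEC replicates deviated together (r 0.19 to 0.61 for the 4 pairs), as did 24- and 12-month kidneys (0.17 to 0.56), so these numbers were taken as pairs. Those of 3-month kidneys were not (r -0.70 to -0.03). The 24-month replicate 3, at r 0.17 with its own number, deviated most like 12-month replicate 1. The labels do not say what a replicate number marks, so the kidney pairs are an assumption. Alternatives were other size factors, no filter, DESeq2 with the settings of the study, a replicate block (in kidneys over all 3 ages or, added after seeing the data, for the 24- and 12-month pairs), only the 2 compared ages, and leaving out each library.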

Additional observations from a re-analysis of the deposited data

Results flagged for a closer look

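The effect of senescence in PTEC and that of 24 against 3 months in kidney differed by the interaction test for 4 of the 9 genes tested. Over all tested genes 23.8% passed this test. On the log2 scale the differences were 2.45 for Zbp1, 1.71 for Dhx58, 0.94 for Ifih1 and -1.61 for Tmem173. The PTEC effect is that of irradiation and 10 more days in culture together. Between 24 and 3 months age and gene set cannot be told apart, and the Tmem173 identifier version differs. Of 14 leave-one-out fits, Zbp1 missed the threshold in 3, Dhx58 in 5 and Ifih1 in 5, whereas Tmem173 passed in all. No library of the 18 sets of 4 cultures passed Dixon's rule for an outlier. Groups of 3 kidneys were too small for that rule. With 4 values only an extreme distance can pass it, so it cannot show that no library stood apart. Sen replicate 1 was the highest for Ifih1, Ddx58, Dhx58 and Zbp1. Leaving it out changed the fold change of Zbp1 in PTEC from 12.0 to 7.27.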

How the results depend on the processing

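The 5 genes called in PTEC, Zbp1 included, were called under every alternative, including the replicate block, DESeq2 with the settings of the study and all 8 leave-one-out fits. Between ages the count of called genes stayed at 0, except that DESeq2 called 1 gene, Zbp1, higher at 24 than at 3 months (log2 1.12, adjusted p = 0.0455). The replicate block changed no call of the 10 genes in PTEC or between ages. In the interaction, a block for the PTEC pairs, chosen after seeing the data, left 3 genes (Tmem173, Ifih1 and Zbp1; Dhx58 adjusted p = 0.0608). Among list genes, the block in PTEC made the call of Mb21d1 (log2 -0.75). A block for the 24- and 12-month pairs, also chosen after seeing the data, kept the call of Oas3 (adjusted p = 0.0445) and ended that of Chuk (0.0768). The planned block over all 3 ages, which includes the unpaired 3-month numbers, ended the calls of Oas3 (0.0731 against 3 and 0.0960 against 12 months), Irf5 (0.145) and Chuk (0.163). Irf5 and Chuk also missed the threshold without the filter (0.0695 and 0.114) and with only 2 ages (0.0911 and 0.0676).

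The count of genes whose effects differ between PTEC and kidney ranged from 1 to 4 over the 14 leave-one-out fits, and that of genes with the larger effect in PTEC from 0 to 3. Zbp1 and Tmem173 passed without sen replicate 1 or 3-month replicate 3, and Tmem173 alone without 24-month replicate 1 or 3.

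Leaving out single libraries turned the sign of small log2 fold changes of genes that were not called, over these ranges: in PTEC Mavs (-0.23 to 0.029) and Irf3 (-0.043 to 0.28); between 12 and 3 months Tmem173 (-0.16 to 0.17), Tlr3 (-0.020 to 0.17) and Irf3 (-0.25 to 0.0058); between 24 and 12 months Tlr3 (-0.066 to 0.14) and Tbk1 (-0.068 to 0.17); and in the interaction Tlr3 (-0.089 to 0.20). In all, 498 of 560 leave-one-out values and 304 of 317 others kept their direction and side of the threshold. The cause of the changes was not tested. Zbp1 had 2 to 4 counts in each ns PTEC library, so its fold change rests on few counts there.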
